A study of Mus musculus with 6 samples.

Results

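Glycolysis splits glucose in the cytosol and yields pyruvate, which enters the mitochondria or is reduced to lactate. When oxygen is scarce, the hypoxia-inducible factors (HIFs) escape the prolyl hydroxylases and the VHL ubiquitin ligase that mark their alpha subunits for destruction, pair with Arnt, and raise the transcription of glucose transporters, most glycolytic enzymes and genes such as Vegfa. The embryonic kidney grows in low oxygen, and its branching epithelium lies beside nephron progenitors that depend on glycolysis. Because HIF alpha subunits are controlled mainly as proteins, transcript values describe the pathway's mRNA and not its activity.

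The genes described here are 44 named members of this pathway, taken by symbol and sorted by role into 4 transporters, 17 glycolytic enzymes, 6 regulators of glycolytic flux, 8 oxygen sensing genes and 9 HIF targets. Of these, 41 had a probe set that carries their symbol alone, out of 19296 such genes on the arrays. The exceptions were glycolytic enzymes: Gapdh shares its probe sets with other symbols, and Gpi1 and Eno1 were not matched to one, so they were not analysed here and the enzymes number 14. Cells came from mouse kidneys at E15.5 of mixed strain background, were released with trypsin, and were sorted by flow cytometry as YFP-positive ureteric bud cells, the epithelium that becomes the collecting ducts. The control group (3 arrays) is labelled wild type. The mutant group (3 arrays) carries 1 conditional and 1 null copy of Dicer (Dicerc/-) with Hoxb7Cre, a Cre expressed in the ureteric bud, and the Rosa26YFP reporter. Although control cells were also sorted as YFP-positive, the labels call them wild type and do not say whether they carried Cre and the reporter. From the labels, Cre and the loss of Dicer therefore cannot be told apart, and the null copy is also present outside the bud.

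All values are log2 RMA expression from Affymetrix whole-transcript arrays, on which a level may be compared between arrays but not between genes. Array medians lay between 7.47 and 7.54, and 7.51, the median of all probe sets, serves below as the border between bright and dim genes. Dicer1, the targeted gene, read 10.31, 10.38 and 10.25 on the control arrays and 9.80, 9.72 and 9.64 on the mutant arrays, so the groups did not overlap (limma, adjusted p = 0.0005). Of 14 ureteric epithelium markers, 14 were bright, 7 were lower and 1 was higher in the mutant. Of 52 measured markers of 8 other lineages, 6 were bright, 2 were higher (3.8%) and 5 lower (9.6%), where 11.8% and 13.9% of all genes were. Six2 of nephron progenitors was 9.78-fold and Lrp2 of proximal tubule 2.07-fold higher, while Osr1 of the first list (log2 fold change -0.67) and Slc34a1 (-0.69) and Hnf4a (-0.31) of the second were lower, as were Plvap of endothelium and Ptprc of leukocytes. Six2 and Lrp2 kept their call without each array in turn. Each of the 5 lower calls was lost when certain single arrays were left out (limma, adjusted p up to 0.139, for Hnf4a). Of 12 immediate early and dissociation response genes, all bright, 7 were lower (58.3%), beside 20.3% of all bright genes. Their summed linear signal was 25569 to 31790 on the control arrays and 22792 to 23419 on the mutant arrays. The part of this response in the results was not tested. Labels call the replicates biological without saying how many embryos each holds, so a p-value here reflects array-to-array spread, part of which may be technical.

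The glycolysis and hypoxia genes changed by small amounts and in both directions, and were called at shares near those of all bright genes. In a limma fit over all genes with Benjamini-Hochberg adjustment, 7 members were higher (17.1% of 41) and 9 were lower (22.0%) in the mutant at an adjusted p under 0.05. Over all genes 11.8% were higher and 13.9% were lower, 25.8% together. Most members are bright, however: among the 32 above the border 5 were higher (15.6%) and 7 lower (21.9%), where 19.3% and 20.3% of all genes above it were called. The largest change of a member was 1.85-fold, whereas 1.08% of all genes were called with at least a 2-fold change. The arrays of the groups did not overlap for 30 of 41 members (73.2%), against 42.5% of all genes and 62.3% of the bright ones. The 41 include dim members, and the share among the 32 bright members alone was not counted.

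**Figure D1:**
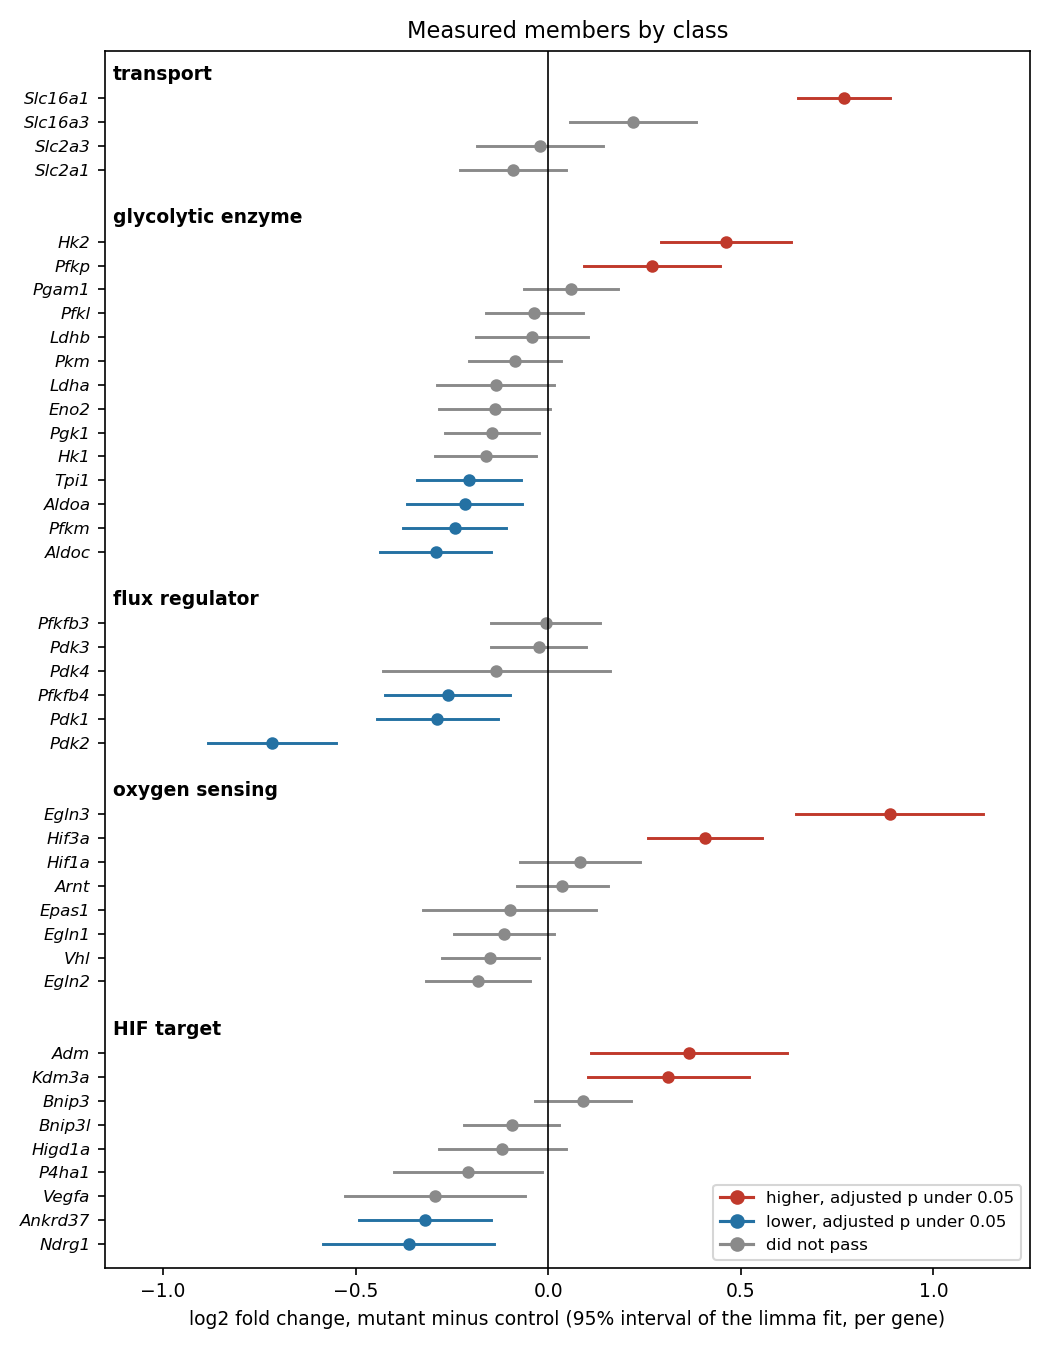
Log2 fold change (mutant minus control, x axis) of the 41 measured members, sorted by class, as points with the 95% interval of the limma fit for each gene alone. Red points were higher and blue points lower at an adjusted p under 0.05, and grey points did not pass. Egln3 and Slc16a1 lie farthest to the right and Pdk2 farthest to the left, with most enzymes a little left of 0.

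Glycolytic enzymes and the oxygen arm of the pathway were then set side by side. Of 14 enzymes, 2 rose (14.3%), 4 fell (28.6%) and 8 did not pass. Of 17 oxygen sensing genes and HIF targets, 4 rose (23.5%), 2 fell (11.8%) and 11 did not pass. Over all genes 11.8% were higher and 13.9% lower. Of 12 bright enzymes, 1 rose (8.3%) and 4 fell (33.3%). Of 13 bright oxygen genes, 3 rose (23.1%) and 1 fell (7.7%), beside 19.3% and 20.3% of all bright genes. The median log2 fold change was -0.14 for the enzymes and -0.10 for the oxygen genes, beside -0.05 over all genes and -0.01 over bright genes. Log2 fold changes were below 0 for 11 of 14 enzymes (78.6%) and 10 of 17 oxygen genes (58.8%). The share below 0 was 61.7% of all genes and 52.2% of bright genes. The enzymes spanned -0.29 to 0.46, the oxygen genes -0.36 to 0.89. These are descriptions of chosen lists, and the difference between the classes was not tested. With each array centred on its own median, 2 enzymes rose and 2 fell, and members as a whole counted 8 higher and 7 lower.

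**Figure D2:**
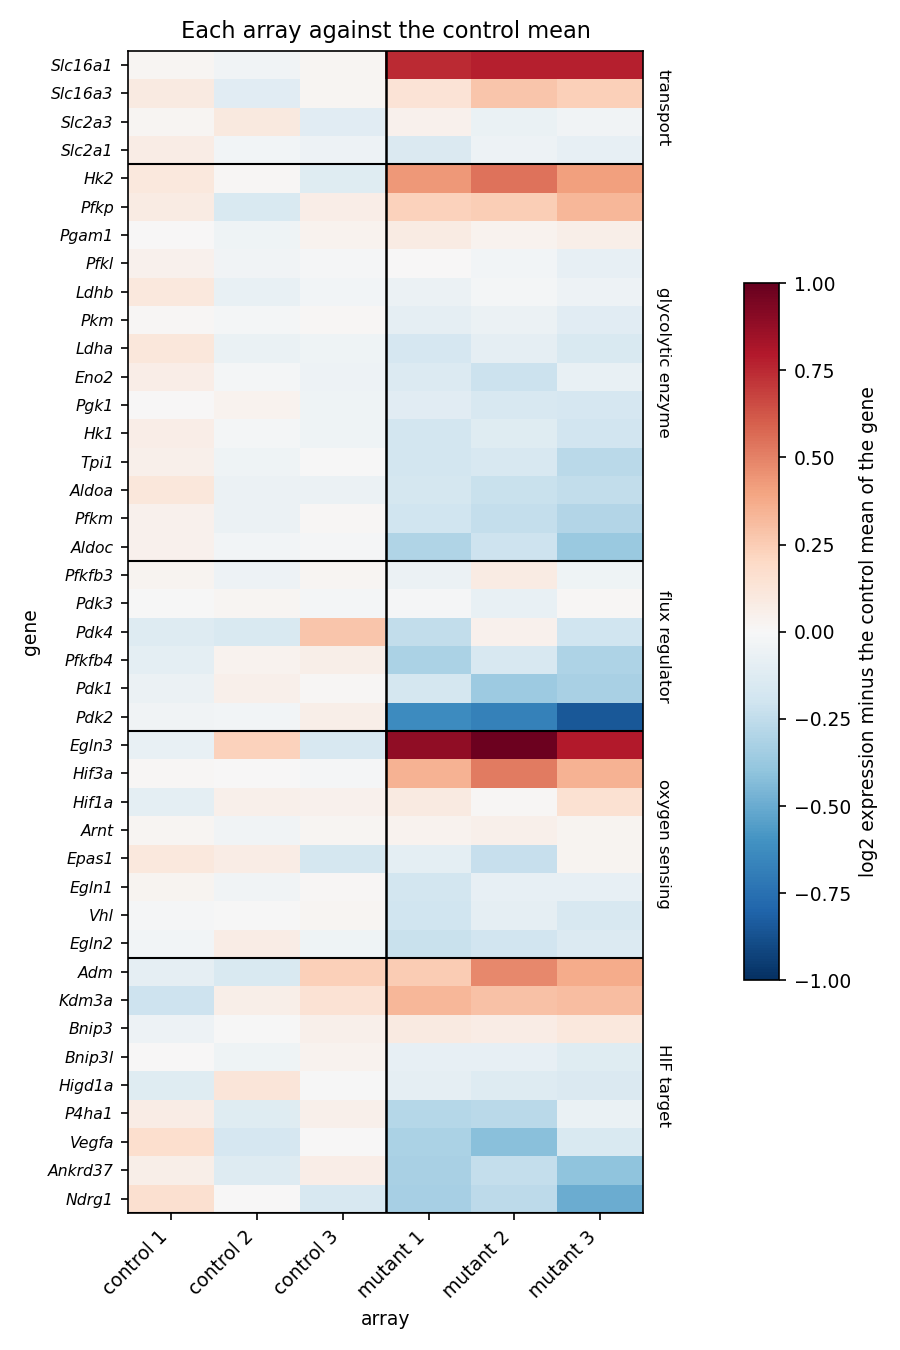
Log2 expression on each of the 6 arrays minus the control mean of the same gene (color scale from -1 to 1), with genes in rows by class and a line between control and mutant arrays. Egln3, Slc16a1, Hk2 and Hif3a are red and Pdk2 is blue on all 3 mutant arrays, while most enzymes are pale blue there.

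Of the 16 members called, 6 kept their call without each of the 6 arrays in turn and under each of 9 other settings at the same threshold. These were Egln3, Slc16a1, Hk2 and Hif3a, which were higher, and Pdk2 and Aldoc, which were lower. They come from 4 of the 5 classes, all but the class of HIF targets outside glycolysis. Genes of the other classes, such as Egln3, can be induced by HIF as well.

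**Figure D3:**
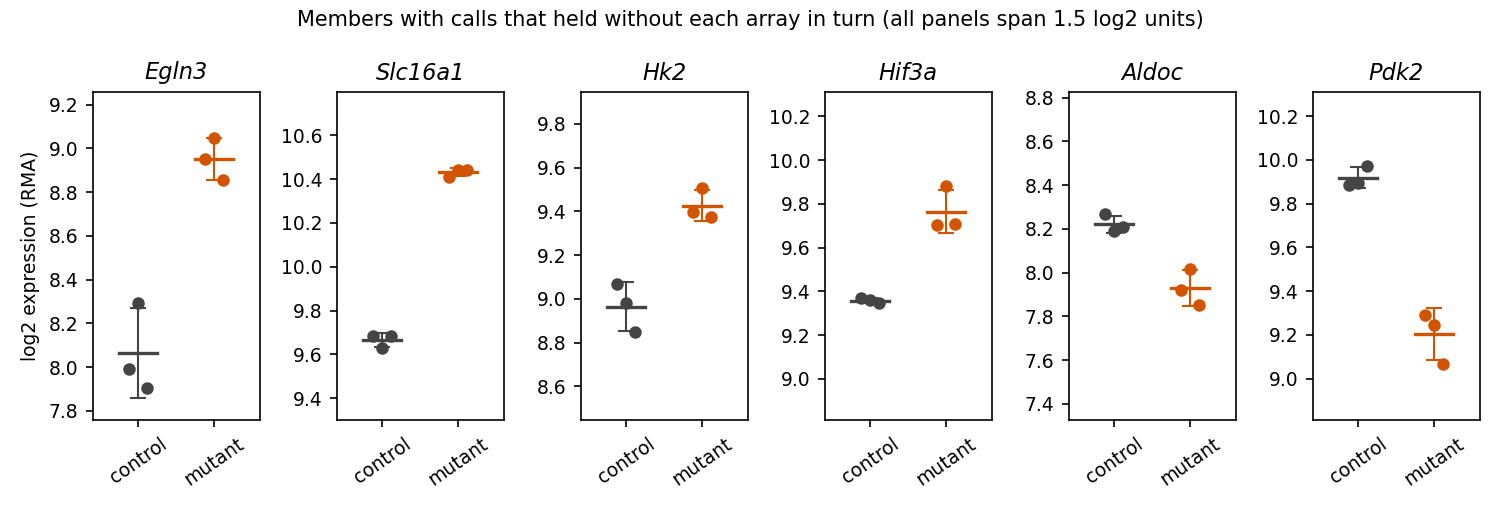
Log2 RMA expression (y axis, each panel spanning 1.5 log2 units) of these 6 members in control and mutant cells. Points are arrays, horizontal lines are group means and error bars are SD (n = 3 each); in each panel the groups do not overlap.

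Among the transporters, which carry glucose in and lactate out, 1 lactate carrier passed the test and the glucose carriers did not. Slc16a1, the monocarboxylate transporter MCT1, read 9.68, 9.63 and 9.68 on the control arrays and 10.41, 10.44 and 10.44 on the mutant arrays. It was 1.70-fold higher in the mutant (log2 fold change 0.77, SE 0.052, limma adjusted p = 6.97e-05), with the mutant arrays far above the control ones. Slc16a3, the lactate exporter MCT4, read 9.44, 9.24 and 9.37 against 9.49, 9.63 and 9.59. Its log2 fold change of 0.22 did not pass (limma, adjusted p = 0.0558). The arrays of Slc16a3 did not overlap either, as for 62.3% of bright genes. This carrier passed without control replicate 1 (adjusted p = 0.0420) and with centred arrays (adjusted p = 0.0260). With a variance trend, array weights or dim genes left out Slc16a3 passed as well. Slc2a1 (GLUT1), the basal glucose transporter and a classic HIF target, had a log2 fold change of -0.09 (95% interval -0.23 to 0.05). Slc2a3 (GLUT3) was dim, at 6.04 to 6.26 over all 6 arrays, with an interval of -0.18 to 0.14.

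In the upper steps of glycolysis 1 hexokinase and 1 phosphofructokinase were higher and another phosphofructokinase was lower. Hk2, the inducible hexokinase that traps glucose, read 9.07, 8.98 and 8.85 in control and 9.40, 9.51 and 9.37 in mutant cells. It rose 1.38-fold (log2 fold change 0.46, SE 0.073, limma adjusted p = 0.00288). Hk1, the constitutive hexokinase, read 10.61, 10.53 and 10.50 against 10.37, 10.43 and 10.36, a log2 fold change of -0.16 that did not pass (adjusted p = 0.0724). It passed with quantile normalization, a variance trend or dim genes left out. Phosphofructokinase, the committed step, has 3 genes. Its muscle form Pfkm read 9.44, 9.33 and 9.41 against 9.20, 9.15 and 9.10 and was lower (log2 fold change -0.24, adjusted p = 0.0171). The platelet form Pfkp, a dim gene, read 6.59, 6.35 and 6.57 against 6.73, 6.75 and 6.84 and was higher (0.27, adjusted p = 0.0344). The liver form Pfkl did not pass (-0.04, interval -0.16 to 0.09). Differences between isoenzymes were not tested. Pfkm lost its call without mutant replicate 2 or 3 (adjusted p 0.0512 to 0.0656), and Pfkp without control replicate 2 or any 1 of the mutant arrays (0.0739 to 0.109).

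In the middle of the pathway, aldolase and triose phosphate isomerase were slightly lower. Aldoc, the aldolase best known from brain, read 8.27, 8.19 and 8.21 in control and 7.92, 8.02 and 7.85 in mutant cells. It was 1.23-fold lower (log2 fold change -0.29, SE 0.062, limma adjusted p = 0.0107), with groups that did not overlap. Aldoa, the main aldolase of most tissues, read 12.67, 12.50 and 12.50 against 12.38, 12.33 and 12.31 (-0.22, adjusted p = 0.0427). Tpi1, triose phosphate isomerase, read 12.38, 12.29 and 12.32 against 12.15, 12.17 and 12.06 (-0.21, adjusted p = 0.0350). The calls of Aldoa and Tpi1 rest on the full set of arrays and on the scaling. Tpi1 was not called without any 1 of the 6 arrays (adjusted p 0.0538 to 0.115), and Aldoa was called only without control replicate 3 (0.0589 to 0.121 otherwise). Neither passed with centred arrays or quantile normalization.

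The lower steps, which make ATP, pyruvate and lactate, held no member past the threshold (limma, 0 of 6, with 1 at an unadjusted p under 0.05). Of all genes 25.8% passed it, and of bright genes 39.6%. Log2 fold changes were -0.15 for Pgk1, phosphoglycerate kinase (adjusted p = 0.0814), 0.06 for Pgam1, phosphoglycerate mutase, -0.14 for Eno2, an enolase typical of neurons, and -0.09 for Pkm, pyruvate kinase. The lactate dehydrogenase subunits Ldha and Ldhb had -0.14 (interval -0.29 to 0.02) and -0.04 (interval -0.19 to 0.10). The lowest bound among these 6 genes was the -0.29 of Ldha. With a variance trend and robust estimation Pgk1 and Ldha passed as lower, and Pgk1 also passed with dim genes left out. Several of these enzymes have near-identical processed copies in the mouse genome, and a probe set may read a copy together with the gene or in its place. Probe positions were not checked, so this cannot be told for Pgam1 or the others.

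The regulators of flux set the pace of phosphofructokinase or close the entry of pyruvate into the mitochondria. Of 6 measured, 3 fell and 3 did not pass, with a median log2 fold change of -0.20. Pdk2, a pyruvate dehydrogenase kinase that switches off pyruvate oxidation, read 9.89, 9.90 and 9.97 in control and 9.29, 9.25 and 9.07 in mutant cells. It was 1.64-fold lower (log2 fold change -0.72, SE 0.072, limma adjusted p = 0.000367), the largest fall among the members, and each mutant array lay below each control array. Pdk1, the kinase best known as a HIF target, read 9.62, 9.73 and 9.69 against 9.50, 9.31 and 9.36 (-0.29, adjusted p = 0.0169). Pfkfb4, a kinase that makes the activator of phosphofructokinase, read 7.38, 7.51 and 7.53 against 7.16, 7.32 and 7.17 (-0.26, adjusted p = 0.0281). Pdk3 (-0.02), Pfkfb3 (-0.01) and the dim Pdk4 (-0.13) did not pass, and their arrays overlapped. Pdk1 lost its call without control replicate 2 or mutant replicate 2 or 3 (adjusted p 0.0575 to 0.0621). Pfkfb4 lost it without control replicate 2 or 3 or mutant replicate 1 or 3 (0.0663 to 0.106).

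Of the oxygen sensing genes, 2 of 8 rose and 6 did not pass, with a median log2 fold change of -0.03. Egln3 (PHD3), a prolyl hydroxylase that is itself induced by HIF, read 7.99, 8.29 and 7.90 in control and 8.95, 9.05 and 8.86 in mutant cells. It rose 1.85-fold (log2 fold change 0.89, SE 0.105, limma adjusted p = 0.000737), the largest rise among the members. Hif3a, an alpha subunit with forms that can oppose the others, read 9.37, 9.36 and 9.35 against 9.71, 9.88 and 9.71. It rose 1.33-fold (0.41, SE 0.064, adjusted p = 0.00282), and the 3 control arrays lay close together, all below the mutant arrays.

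The core of the sensor did not pass. Hif1a read 11.34, 11.49 and 11.48 against 11.52, 11.45 and 11.59, with a log2 fold change of 0.08 (interval -0.07 to 0.24). Its partner Arnt had 0.04 (interval -0.08 to 0.16). Epas1 (HIF-2 alpha), which is typical of endothelium and interstitial cells, was dim at 6.65 to 6.99 over the 6 arrays, and the groups overlapped. Of 8 endothelial markers all were dim and 1, Plvap, was lower (12.5%, beside 13.9% of all genes). The summed linear signal of these markers was 747 to 1034 in control and 659 to 845 in mutant cells. The part of endothelium in the Epas1 value was not tested. Egln1 (PHD2), the main hydroxylase of HIF-1 alpha, had -0.11, Egln2 (PHD1) -0.18 (adjusted p = 0.0548) and Vhl -0.15 (adjusted p = 0.0802). For each of these 3 the mutant arrays lay below the control arrays, but the groups did not overlap for 62.3% of bright genes in either direction. Egln2 and Vhl passed as lower with quantile normalization, a variance trend or dim genes left out, and Egln2 also with array weights.

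The HIF targets outside glycolysis were split: of 9 measured, 2 rose (22.2%), 2 fell (22.2%) and 5 did not pass (median log2 fold change -0.12). Over all genes 11.8% were higher and 13.9% lower, and over bright genes 19.3% and 20.3%. Kdm3a, a histone demethylase, read 9.67, 9.94 and 10.03 in control and 10.21, 10.17 and 10.19 in mutant cells, and was higher (0.31, SE 0.090, limma adjusted p = 0.0382). Adm, the vasodilator peptide adrenomedullin, read 7.08, 7.02 and 7.41 against 7.42, 7.65 and 7.54 and was higher (0.37, SE 0.110, adjusted p = 0.0433), with control replicate 3 next to the lowest mutant array. Ndrg1, a stress-responsive gene linked to differentiation, read 8.39, 8.23 and 8.07 against 7.90, 7.97 and 7.74 and was lower (-0.36, SE 0.096, adjusted p = 0.0268). Ankrd37, a small ankyrin repeat gene and a direct HIF-1 target, read 7.14, 6.96 and 7.16 against 6.77, 6.85 and 6.69 and was also lower (-0.32, SE 0.074, adjusted p = 0.0155). These 4 calls were not firm. Among the fits that leave out an array, Adm and Kdm3a were called only without control replicate 3 (adjusted p 0.0553 to 0.141 and 0.0503 to 0.108 in the others). Adm also missed the threshold when p-values were adjusted over all 23309 probe sets, those with several symbols included, an alternative chosen after seeing the data (adjusted p = 0.0538). Ndrg1 lost its call without control replicate 1 or 2 or mutant replicate 1 or 3 (0.0654 to 0.0878), and Ankrd37 without mutant replicate 1 or 3 (0.0534 to 0.0595).

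Vegfa, the endothelial growth factor, read 9.92, 9.58 and 9.75 against 9.44, 9.34 and 9.60. Its log2 fold change of -0.29 (interval -0.53 to -0.06) did not pass (adjusted p = 0.0695), and mutant replicate 3 lay above control replicate 2. Among the fits that leave out an array it passed as lower only without control replicate 2 (adjusted p = 0.0376), and it also passed with a variance trend (0.0220) or dim genes left out (0.0289). The mitophagy genes Bnip3 and Bnip3l had 0.09 and -0.09, the mitochondrial gene Higd1a -0.12 and the collagen prolyl hydroxylase P4ha1 -0.21 (adjusted p = 0.109). A second, dimmer probe set existed for Bnip3 (log2 fold change 0.16), Bnip3l (-0.03), Higd1a (-0.28) and Ldhb (0.04). None of these 4 sets passed over all 23309 probe sets (limma, adjusted p 0.0580 to 0.878). Without probe positions it cannot be told which set of each pair reads the gene and which may read a copy. The values given first are those of the brighter set and may not be the gene's own. When both sets were averaged, Higd1a passed as lower (-0.20, limma adjusted p = 0.0372), while Bnip3, Bnip3l and Ldhb did not pass.

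Promoter sequences were searched for the HIF core motif. The search took the 250 bases before each RefSeq start (GRCm38.p6) and the letters ACGTG or GCGTG on either strand; a CACGTG holds a match on both strands. The windows below belong to the 6 members whose calls held and to Ldha, which did not pass; each is the window with the most matches, or on a tie the one farther upstream. Letters run 5′ to 3′ in gene direction with matches in capitals.
Egln3: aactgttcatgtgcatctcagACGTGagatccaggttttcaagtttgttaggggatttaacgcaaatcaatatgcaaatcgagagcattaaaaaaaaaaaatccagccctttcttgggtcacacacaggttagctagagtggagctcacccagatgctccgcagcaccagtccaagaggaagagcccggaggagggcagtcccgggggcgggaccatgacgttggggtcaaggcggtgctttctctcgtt
Hif3a: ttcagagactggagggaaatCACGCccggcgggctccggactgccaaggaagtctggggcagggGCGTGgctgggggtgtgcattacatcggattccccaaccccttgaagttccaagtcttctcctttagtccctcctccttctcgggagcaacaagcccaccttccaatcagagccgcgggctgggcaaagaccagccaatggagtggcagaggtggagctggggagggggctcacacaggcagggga
Slc16a1: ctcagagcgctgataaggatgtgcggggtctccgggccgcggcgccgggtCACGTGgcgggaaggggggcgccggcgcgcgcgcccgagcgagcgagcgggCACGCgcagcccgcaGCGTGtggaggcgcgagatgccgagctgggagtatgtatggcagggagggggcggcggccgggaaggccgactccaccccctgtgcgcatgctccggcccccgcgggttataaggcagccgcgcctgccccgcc
Hk2: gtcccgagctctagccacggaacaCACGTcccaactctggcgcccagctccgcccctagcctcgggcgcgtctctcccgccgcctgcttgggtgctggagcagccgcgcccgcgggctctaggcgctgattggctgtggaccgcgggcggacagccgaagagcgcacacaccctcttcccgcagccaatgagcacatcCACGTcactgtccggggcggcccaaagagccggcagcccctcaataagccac
Pdk2: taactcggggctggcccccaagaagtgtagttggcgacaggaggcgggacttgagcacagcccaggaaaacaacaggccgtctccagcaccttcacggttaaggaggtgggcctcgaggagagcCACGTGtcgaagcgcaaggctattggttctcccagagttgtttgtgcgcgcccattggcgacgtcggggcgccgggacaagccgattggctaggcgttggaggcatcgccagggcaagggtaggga
Aldoc: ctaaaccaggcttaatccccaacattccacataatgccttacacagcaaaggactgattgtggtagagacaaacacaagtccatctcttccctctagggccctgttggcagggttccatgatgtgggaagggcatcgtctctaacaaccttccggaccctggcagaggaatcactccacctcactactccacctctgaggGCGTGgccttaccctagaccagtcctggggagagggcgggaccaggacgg
Ldha: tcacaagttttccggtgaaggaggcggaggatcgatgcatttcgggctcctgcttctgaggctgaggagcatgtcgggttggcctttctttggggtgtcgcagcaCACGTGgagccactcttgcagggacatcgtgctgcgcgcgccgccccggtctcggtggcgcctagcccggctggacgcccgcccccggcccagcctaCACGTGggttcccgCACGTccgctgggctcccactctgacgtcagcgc

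These windows are Egln3 at chr12:54203875-54204124 (minus strand), Hif3a at chr7:17062428-17062677 (minus), Slc16a1 at chr3:104638414-104638663 (plus), Hk2 at chr6:82774455-82774704 (minus), Pdk2 at chr11:95041372-95041621 (minus), Aldoc at chr11:78322823-78323072 (plus) and Ldha at chr7:46845554-46845803 (plus). Ldha held 5 matches and Slc16a1 4, while Egln3 and Aldoc held 1 each, at 229 and 50 bases before the start. Slc16a1, Pdk2 and Ldha hold the palindrome CACGTG, which is also the E-box bound by other factors such as Myc. Of 40 members with a window, 36 held a match (90.0%), against 41.5% of all 27025 genes and 64.2% of the bright genes tested. A gene was counted if any of its windows held a match, so genes with more windows had more chances. The 40 include Gapdh, Gpi1 and Eno1, which are absent from the counts by response. The median GC content was 61.3% for the members, 52.4% for all genes and 60.8% for the bright ones. By response, a match stood before 7 of 7 members called higher, 7 of 8 called lower and 20 of 22 that did not pass; a match is a description of letters, not a binding site. Glycolytic enzymes held it in 14 of 17 and oxygen sensing genes and HIF targets in 13 of 14.

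Other genes of the pathway, from 4 lists of general knowledge, were counted in the same fit, in which 25.8% of all genes and 39.6% of bright genes were called. Of 30 other glycolysis and pyruvate genes, 3 rose, 3 fell and 24 did not pass (20.0% called, median log2 fold change 0.00). Mpc1, a subunit of the mitochondrial pyruvate carrier, was 1.48-fold lower (log2 fold change -0.57, limma adjusted p = 0.000404), and Galm, which converts glucose anomers (-0.56), and Bpgm (-0.31) were also lower. The transporter Slc2a10 (0.47), the phosphoglucomutase Pgm2 (0.36) and Slc16a7, the transporter MCT2 (0.26), were higher. All but Slc16a7 kept their call without each array in turn; Slc16a7 lost it without control replicate 1 or 2 or mutant replicate 2 or 3 (adjusted p up to 0.0781). Of 14 gluconeogenesis and pentose phosphate genes, 2 rose, 4 fell and 8 did not pass (42.9% called, median -0.17). Pyruvate carboxylase, Pcx, was lower (-0.58, limma adjusted p = 0.000387) as were the lactonase Pgls (-0.37) and the glucose phosphatase G6pc3 (-0.33), while the isomerase Rpia (0.30) and the glucose 6-phosphate transporter Slc37a4 (0.32) were higher. G6pc3 lost its call without mutant replicate 1 or 3 (adjusted p up to 0.0560) and Slc37a4 without control replicate 1 or 3 or mutant replicate 2 or 3 (up to 0.0880).

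Of 15 other oxygen sensing genes, 3 rose, 3 fell and 9 did not pass (40.0% called, against 39.6% of bright genes, median log2 fold change 0.07). Hif1an (FIH), the asparaginyl hydroxylase that blocks coactivator binding by HIF, read 9.57, 9.79 and 9.81 in control and 10.61, 10.51 and 10.61 in mutant cells. It rose 1.81-fold (0.85, SE 0.078, limma adjusted p = 0.000227). Usp33, a deubiquitinase, rose (0.42), and Siah2, a ubiquitin ligase for prolyl hydroxylases, and Rbx1, a subunit of the VHL ligase, were lower (-0.48 and -0.37). These 4 kept their call without each array in turn. The chaperone Hsp90aa1 was higher (0.18) and Elob, elongin B of the VHL ligase, lower (-0.22). Hsp90aa1 lost its call without any 1 of the 6 arrays (adjusted p 0.0577 to 0.138), and Elob without control replicate 1 or 3 or mutant replicate 1 or 3 (up to 0.106) and with another scaling (0.0737). Of 38 other HIF targets, 8 rose, 6 fell and 24 did not pass (36.8% called, median -0.02). Ddit4, an inhibitor of mTORC1, rose 1.91-fold (0.93, adjusted p = 0.000152), the dim repressor Bhlhe41 2.25-fold (1.17) and the endoplasmic reticulum oxidase Ero1a 1.46-fold (0.54). Cxcr4, a chemokine receptor of the ureteric tip, was lower (-0.80), as were Anxa2 (-0.64) and Stc1 (-0.58). All 6 kept their call without each array in turn. Log2 fold changes in this list ran from -0.80 to 1.17, and those of the HIF targets among the members from -0.36 to 0.37.

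**Figure D4:**
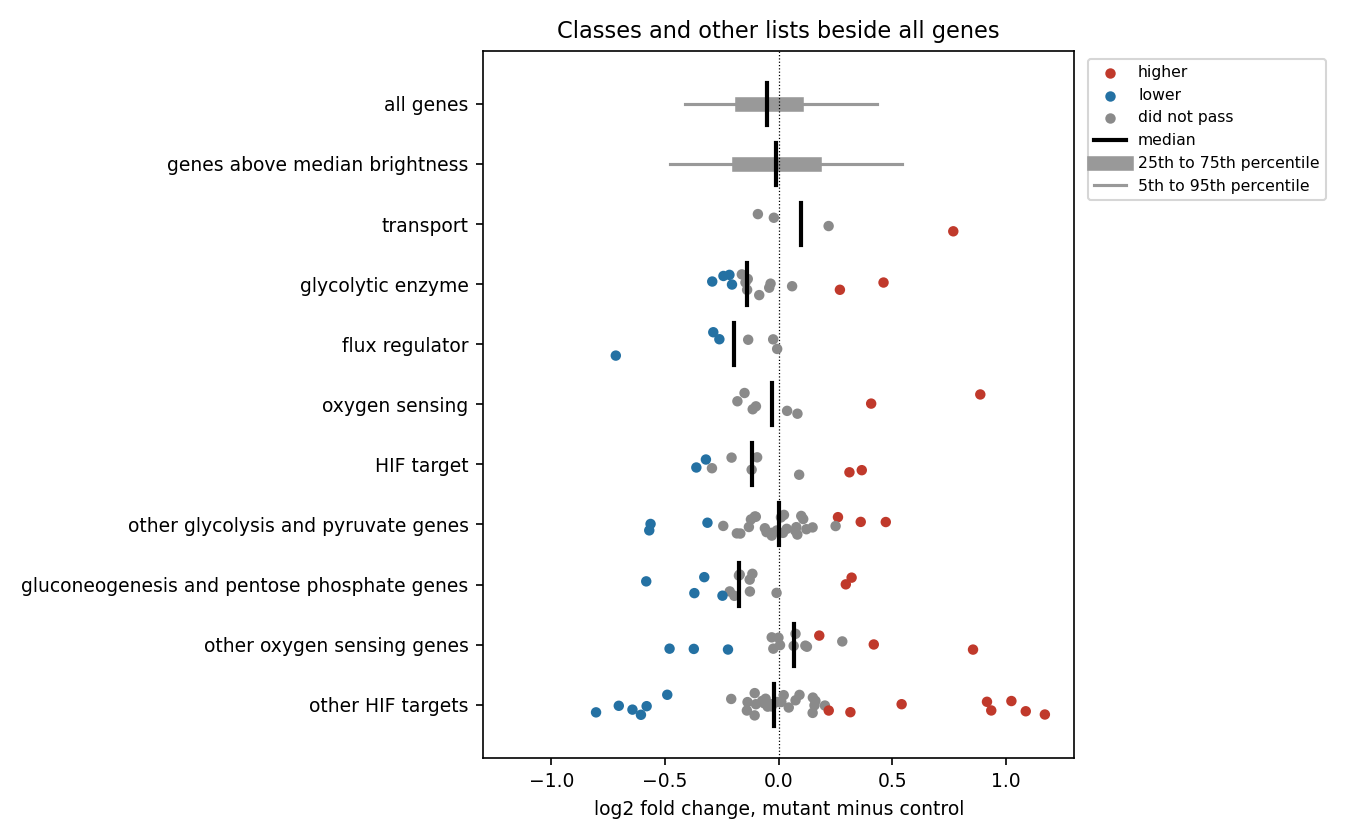
Log2 fold change (mutant minus control, x axis) of each measured gene in the 5 member classes and 4 other lists of the pathway, with the median of each row as a black bar and all genes and bright genes as grey percentile bars. Points are red where higher, blue where lower and grey where not past the threshold. The class medians lie between -0.20 and 0.10, and single genes of the other HIF targets reach from -0.80 to 1.17.

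**Figure D5:**
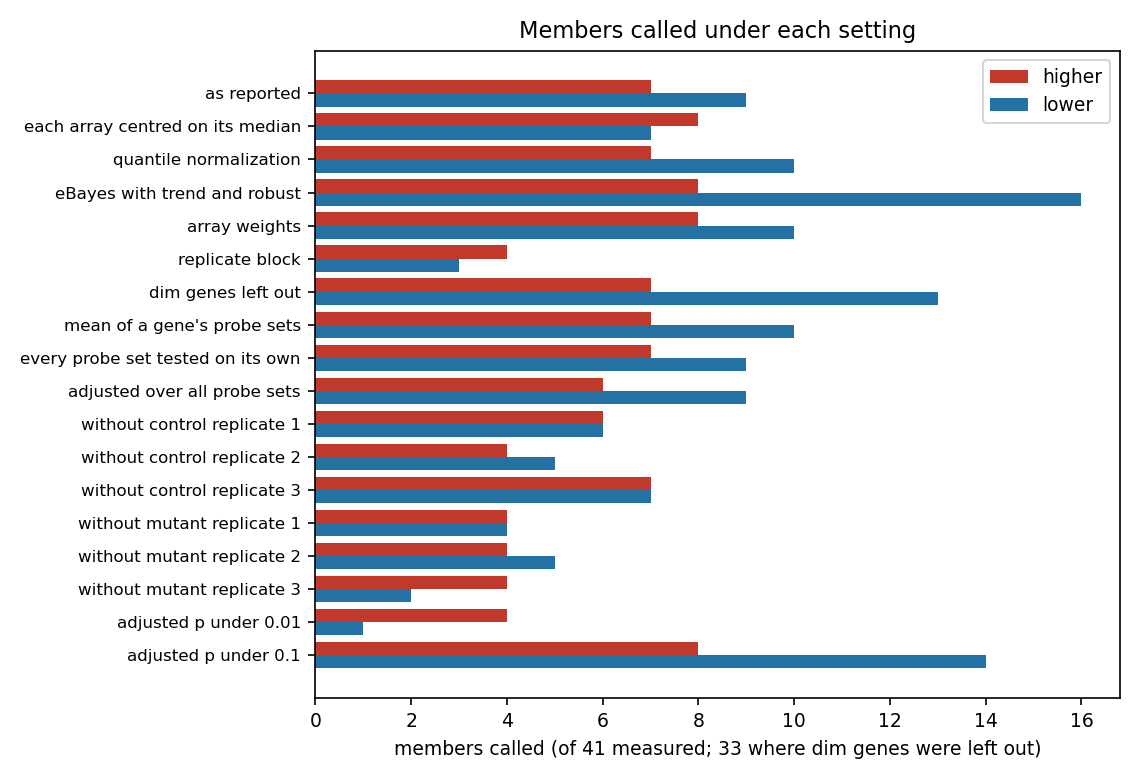
Number of members called higher (red) and lower (blue) in the mutant (x axis, starting at 0) as reported and under each other setting (y axis). Higher calls range from 4 to 8 and lower calls from 1 to 16.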

How the data were processed

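Values deposited by the authors are log2 expression values, 1 for each probe set and array, made with RMA in the affy package per the submitters' processing notes; for versions, genome build and filters, the sources used here state nothing. RMA equalises the arrays, so a shift common to most transcripts would be lost, and changes of dim genes are compressed. Of 23309 probe sets, 20728 have 1 symbol in the platform annotation, 1174 several and 1407 none listed. For each gene the brightest probe set was kept (19296 genes). Probe positions were not checked against gene loci. A value of any gene named here, also one with a firm call such as Mpc1 or Rbx1, may therefore come from a copy elsewhere in the genome. Both groups entered 1 linear model with genotype as the only term (limma 3.58.1, R 4.3.3, lmFit and eBayes), with two-sided p-values adjusted by Benjamini-Hochberg over all genes and a threshold of 0.05. On simulated arrays of 19296 genes, 50 genes were given each size of log2 change. Of those given 0.5, the smallest size, 64% were called, and 96% of those given 1. In the data 25.8% of genes were called, and the adjustment depends on how many genes change. These rates therefore do not give the sensitivity of the fit to the data. No precision other than that of 3 arrays a group is known, and no detection calls are used. No gene was filtered on intensity.

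The members, classes and lists were chosen with earlier results of these data known, so no list supports a direction by itself. All 44 members are accounted for; of each other list up to 3 genes past the threshold in each direction were named, by smallest p. Promoter windows come from RefSeq. Alternatives were scaling, variance model, array weights, a replicate block, dim genes left out, other probe set rules, thresholds, class definitions, each array left out and, added after seeing the data, adjustment over all probe sets. Figures were drawn with matplotlib 3.10.9.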

Additional observations from a re-analysis of the deposited data

How the results depend on the processing

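As reported, 7 members were higher and 9 lower, of which 2 and 4 were glycolytic enzymes and 4 and 2 oxygen sensing genes or HIF targets. Without 1 array at a time these counts ran from 4 to 7 and 2 to 7 for members, 1 to 2 and 1 to 3 for enzymes, and 2 to 4 and 0 to 2 for oxygen genes; the fewest lower members were left without mutant replicate 3. All genes called ran from 3460 to 5130, the enzyme median from -0.16 to -0.09 and the oxygen gene median from -0.11 to -0.0622 (without control replicate 2). Fits without an array leave 2 samples in that group. With the replicate block, 4 members were higher and 3 lower (enzymes 1 and 1, oxygen genes 2 and 1); deviations of same-numbered arrays from their group means correlated at -0.189, -0.095 and -0.219, and no array correlated best with its own number, so the arrays share only a number. At an adjusted p under 0.01, 4 members were higher and 1 lower (enzymes 1 and 0, oxygen genes 2 and 0; 2790 genes in all), and under 0.1, 14 members and 5 oxygen genes were lower. A variance trend with robust estimation gave 16 lower members, 7 lower enzymes and 6 lower oxygen genes. Centring left 2 lower enzymes. Quantile normalization gave 4 lower oxygen genes and medians of -0.087 for enzymes and -0.0547 for oxygen genes. Without dim genes there were 1 higher enzyme, 5 lower oxygen genes and an oxygen gene median of -0.029. The oxygen sensing class alone had a median of -0.0316. Except where fewer arrays, fewer genes or another threshold define the setting, the cause was not tested. None of the 16 called members reversed its direction under these settings. With 3 arrays a group, small changes near the threshold, such as those of Aldoa, Tpi1, Adm and Kdm3a, cannot be resolved.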
